A study of Homo sapiens with 8 samples.

Results

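MM6 (MonoMac 6) is an established human cell line from an acute monocytic leukaemia. The results below describe its poly(A) RNA after knockdown of METTL14 by a short hairpin RNA, in 4 of the 8 libraries of the series; the other 4 come from another leukaemia line. The group shM14 (2 libraries) carried a hairpin against METTL14, labelled shM14-#2, in the lentiviral vector pLKO.1. The group shNS (2 libraries) carried a non-specific hairpin in the same vector. Both groups were selected with 0.5 µg/mL puromycin for 2 passages, so viral entry and selection were common to them. Only 1 hairpin against METTL14 was used, no untransduced cells are among these libraries, and the labels name no clone. The labels do not say whether the libraries of a group came from separate cultures, and p-values therefore measure only the spread between these libraries. The members are all genes of the MM6 table: 16726 were listed and 11895 were tested, those whose RPKM reached 1 in 2 or more of the 4 libraries. RPKM is the read count divided by the length of the gene model and by the depth of the library.

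N6-methyladenosine (m6A) is a common internal mark of messenger RNA. METTL3 carries the catalytic site of the complex that writes it, METTL14 binds the RNA and holds METTL3 in its active shape, and WTAP, KIAA1429 (VIRMA), ZC3H13 and RBM15 place the complex. FTO and ALKBH5 remove the mark, and YTH-domain and IGF2BP proteins bind it and affect the decay, translation or stability of the message. In blood formation, monocytic maturation brings surface receptors for microbes, antibodies and complement, while HOXA genes and FLT3 belong to the progenitor state that many leukaemias keep.

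Each library held 23272126 to 28525520 reads over the listed genes, and 16341 to 16403 genes had a read. The 10 most abundant genes took 4.80% to 7.07% of the reads, and LYZ or EEF1A1 led. Monocyte markers were present in all 4 libraries: 15 of 16 were tested, their summed level was 10240 to 26360 RPKM, and FCN1 alone stayed under 1 RPKM throughout. LYZ, the monocyte lysozyme, had 9206 and 5836 RPKM with shNS and 14300 and 8164 RPKM with shM14. Of 12 T and NK cell markers, 9 were analysed and 7 of these were under 1 RPKM in every library; their sum, 132.1 to 146 RPKM, was nearly all NKG7. The B-cell list summed to 4.41 to 6.35 RPKM, the epithelial list to 7.17 to 12.6, the megakaryocyte list to 1.34 to 2.16, and the erythroid, fibroblast and endothelial lists to at most 1.42. The mast cell, basophil and eosinophil list was higher, at 318.3 and 243.1 RPKM with shNS and 199.7 and 146.1 with shM14. These sums came almost wholly from the tryptase genes TPSAB1 and TPSB2. In bulk RNA, fewer cells of a type and less RNA per cell cannot be told apart.

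The libraries also differed by replicate number, irrespective of the hairpin. Immediate early genes encode transcription factors and feedback regulators that are transcribed within minutes of a stimulus. Of 37 such genes, 33 were higher in both replicate 1 libraries than in both replicate 2 libraries, against 10.7% of all tested genes, and 2 were lower in both, against 32.6% of all. FOS, a component of AP-1, had 671 and 161 RPKM with shNS and 555 and 177 RPKM with shM14; EGR3 had 9.99 and 0.0256 RPKM with shNS and 39.03 and 0.8299 RPKM with shM14. These 2 genes were picked after their values were seen. The median level of the 37 genes was 23.9 and 10.2 RPKM with shNS and 39.0 and 10.2 RPKM with shM14. The same order was seen in 14 of 19 replication histone genes, 11 of 24 NF-kB feedback genes and 7 of 14 chemokine genes. Interferon-induced genes had another pattern: shNS replicate 2 held the highest level of 39 of 48 effector genes, against 31.5% of all tested genes. What sets the numbers apart was not tested, so the change is given below as the mean over the groups and then, after the words "by number", as shM14 minus shNS in replicate 1 and in replicate 2. All changes are on log2(RPKM + 1), and p-values are limma's, adjusted by Benjamini-Hochberg over the tested genes.

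**Figure D1:**
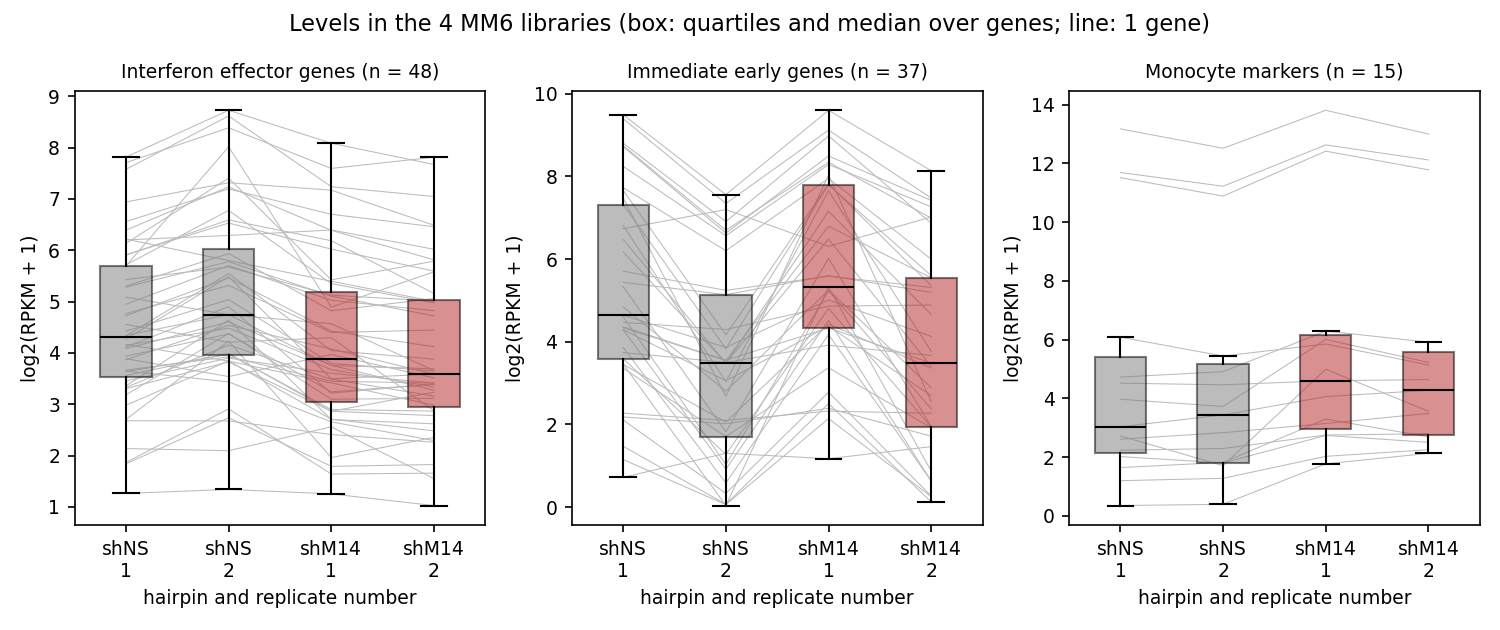
Levels of 3 gene lists in the 4 MM6 libraries, on log2(RPKM + 1); each line is 1 gene and each box gives the quartiles and the median over the genes of a list. Interferon effector genes were highest in shNS replicate 2, immediate early genes were high in both replicate 1 libraries (medians of 23.9 and 39.0 RPKM), and monocyte markers were higher in both shM14 libraries for 13 of 15 genes.

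The targeted gene was lower in both knockdown libraries. METTL14 had 12.5 and 13.4 RPKM with shNS and 6.54 and 6.55 RPKM with shM14, and the groups did not overlap. The mean differed by -49.4%, which is -0.88 in log2(RPKM + 1) (SE 0.13, limma adjusted p = 0.0877), with same-number changes of -0.84 and -0.93. This missed the threshold of 0.05 in the fit of the 4 libraries by hairpin only. With the replicate number as a block, a pairing the labels do not state, limma gave an adjusted p of 0.00885. The authors' deposited table gives a log2 fold change of -0.94 (adjusted p = 0.00489).

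The other genes of the m6A machinery also missed the threshold. Among 11 writers and erasers, METTL14 included, 1 was higher and 3 were lower without overlap of the groups. Over all tested genes this held for 19.0% higher and 25.8% lower, so the counts lie near the background. The catalytic partner METTL3 had 28.9 and 35.6 RPKM with shNS and 33.2 and 43.4 RPKM with shM14, with overlapping groups. WTAP had 20.3 and 20.99 RPKM with shNS and 27.8 and 24.1 RPKM with shM14, a difference of 0.31 (adjusted p = 0.392). KIAA1429 had 15.3 and 16.5 RPKM with shNS and 13.1 and 14.3 RPKM with shM14, a difference of -0.2 (adjusted p = 0.576). In both the groups stood narrowly apart. Among 9 readers, 2 were higher and 2 lower without overlap; IGF2BP3, which stabilises messages, had 10.3 and 9.43 RPKM with shNS and 15.2 and 12.3 RPKM with shM14 (adjusted p = 0.3), and the reader and helicase YTHDC2 had 7.43 and 8.498 RPKM with shNS and 9.07 and 9.68 RPKM with shM14 (adjusted p = 0.572).

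With 2 libraries against 2, limma called 9 genes at an adjusted p under 0.05: 6 rose, which is 0.0504% of the tested genes, and 3 fell, which is 0.0252%. At an unadjusted p under 0.05 there were 717 higher (6.03%) and 1062 lower (8.93%). An alternative limma fit with the replicate number as a block called 1405 genes at an adjusted p under 0.05. The labels state no pairing of equal numbers. The authors' deposited table calls 213 of the tested genes higher (1.79%) and 227 lower (1.91%) at an adjusted p under 0.05; the test behind it is not given in the sources used here. All 9 genes called by limma are among them. Leaving out a library leaves a lone library in a group and less information on spread. Such fits cannot show whether the 9 calls rested on a single library.

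The 6 genes that rose encode proteins of the leukocyte cytoskeleton and membrane, the matrix, caveolae and cytokines. LSP1, a leukocyte protein that binds F-actin, rose from 0.294 and 0.226 RPKM with shNS to 3.81 and 4.26 RPKM with shM14 (change 2, SE 0.14, by number 1.89 and 2.1, adjusted p = 0.0346). LRRC25, a leucine-rich transmembrane protein of myeloid cells, rose from 1.45 and 1.28 to 13.99 and 10.6 RPKM (change 2.48, by number 2.61 and 2.35, adjusted p = 0.0346). FN1, fibronectin, rose from 17.6 and 22.8 to 109 and 95.8 RPKM (change 2.29, by number 2.57 and 2.02, adjusted p = 0.0479). Fibronectin was the most abundant of the 6. EBI3, a subunit shared by the cytokines IL-27 and IL-35, rose from 0.406 and 0.236 to 5.302 and 4.12 RPKM (change 2.11, by number 2.16 and 2.05, adjusted p = 0.0479). PTRF (cavin-1), a coat protein of caveolae, rose from 0.369 and 0.433 to 4.09 and 3.39 RPKM (change 1.75, by number 1.89 and 1.62, adjusted p = 0.0482). AMICA1 (JAML), an adhesion receptor of leukocytes crossing epithelia, rose from 1.07 and 1.25 to 5.56 and 5.52 RPKM (change 1.6, by number 1.67 and 1.54, adjusted p = 0.0482). In LSP1, EBI3 and PTRF both control libraries were below 1 RPKM, and the added 1 RPKM makes these log2 changes smaller than those of the levels themselves. These genes passed the filter of 1 RPKM only through the shM14 libraries, which fixed in advance that their groups did not overlap. The authors' deposited log2 fold changes are 3.98 for LSP1, 3.91 for EBI3 and 3.26 for PTRF.

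Of the 3 genes that fell, CSRP3 encodes a muscle LIM protein and had the largest negative change of all tested genes. It fell from 12.3 and 10.98 RPKM with shNS to 1.01 and 0.734 RPKM with shM14 (change -2.76, SE 0.15, by number -2.73 and -2.79, adjusted p = 0.0346). PTGIS, prostacyclin synthase, fell from 30.5 and 33.7 to 5.54 and 6.16 RPKM (change -2.27, by number -2.27 and -2.28, adjusted p = 0.0346). INHBA, the subunit that forms activin A, fell from 22.6 and 23.9 to 4.46 and 3.63 RPKM (change -2.27, by number -2.11 and -2.42, adjusted p = 0.0346). The same-number changes of each were close: -2.73 and -2.79 for CSRP3, -2.27 and -2.28 for PTGIS and -2.11 and -2.42 for INHBA. The lists that hold CSRP3 and PTGIS showed no such lean. Of 18 muscle LIM and sarcomere genes 3 were lower and 4 higher without overlap, and of 21 eicosanoid genes 3 were lower and 5 higher. Both lie near the shares over all tested genes, 25.8% lower and 19.0% higher.

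**Figure D2:**
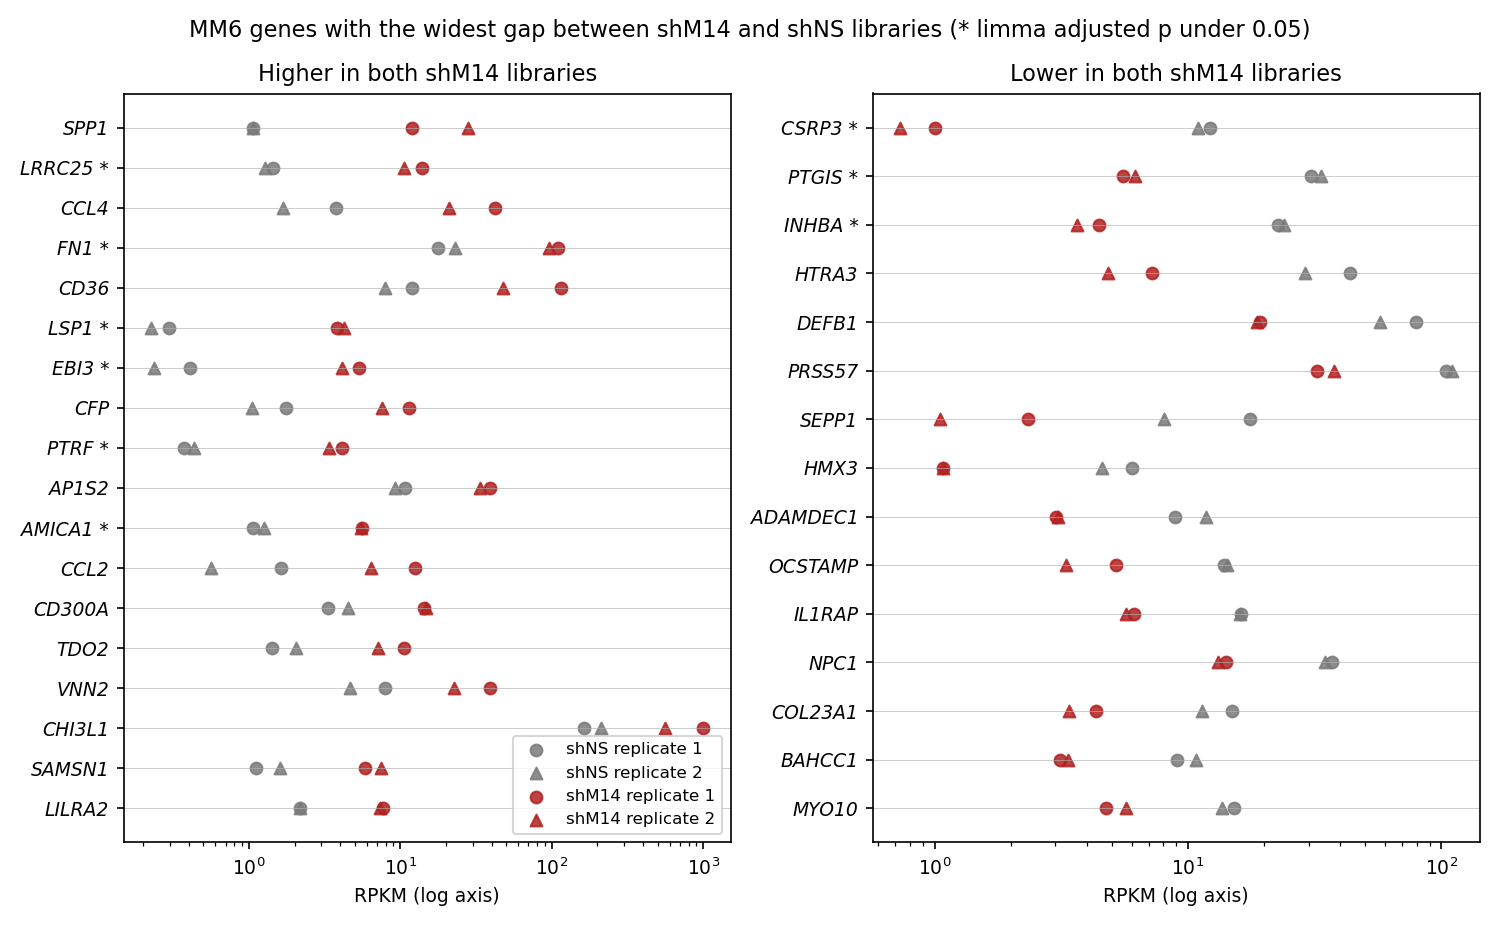
RPKM (log axis) in each of the 4 MM6 libraries for the 9 genes past the threshold (asterisk) and the 15 genes in each direction with the widest gap between the closest libraries of the groups. Circles are replicate 1, triangles replicate 2; in every gene drawn the shM14 libraries lie on 1 side of both shNS libraries.

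Genes were also ranked by the gap between the closest libraries of the groups, on log2(RPKM + 1). The 15 genes with the widest gap in each direction had gaps of at least 1.39 and 1.13, and the next genes outside the list had 1.37 and 1.12. These 30 were chosen by that gap, so it supports nothing further about them. Of the 30, 6 passed limma, the adjusted p-values ran from 0.0346 to 0.109, and all 30 are called in the authors' deposited table.

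Among the 15 on the higher side, some encode secreted proteins. SPP1, osteopontin, had 1.06 and 1.06 RPKM with shNS and 11.9 and 28.02 RPKM with shM14 (change 3.23, by number 2.64 and 3.82, adjusted p = 0.0632). Both shNS libraries were near 1 RPKM, and the shM14 libraries differed from each other more than 2-fold. CHI3L1, a chitinase-like protein secreted by macrophages, had 164 and 211 RPKM with shNS and 997 and 558 RPKM with shM14 (change 2, by number 2.6 and 1.4, adjusted p = 0.091). CFP, properdin, the positive regulator of the alternative complement pathway, had 1.75 and 1.04 RPKM with shNS and 11.4 and 7.51 RPKM with shM14 (change 2.12, by number 2.17 and 2.06, adjusted p = 0.0632). CD36, a membrane scavenger receptor for oxidised lipoproteins and thrombospondin, had 11.96 and 7.93 RPKM with shNS and 115 and 47.9 RPKM with shM14 (change 2.81, by number 3.16 and 2.45, adjusted p = 0.0922). In CD36 as in CHI3L1, shM14 replicate 1 was the highest library, and the groups stood apart.

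The chemokines CCL4 and CCL2 and several regulators of myeloid signalling were on the same side. CCL4, which attracts monocytes and T cells, had 3.77 and 1.67 RPKM with shNS and 41.9 and 21 RPKM with shM14 (change 3.1, by number 3.17 and 3.04, adjusted p = 0.0779). CCL2, which draws monocytes through CCR2, had 1.63 and 0.565 RPKM with shNS and 12.6 and 6.44 RPKM with shM14 (change 2.31, by number 2.37 and 2.25, adjusted p = 0.0983). For both chemokines replicate 1 was the higher library within each group, and the same-number changes were 3.17 and 3.04 for CCL4 and 2.37 and 2.25 for CCL2. LILRA2, an activating immunoglobulin-like receptor, had 2.17 and 2.16 RPKM with shNS and 7.72 and 7.29 RPKM with shM14, and CD300A, an inhibitory receptor, had 3.303 and 4.48 RPKM with shNS and 14.4 and 14.8 RPKM with shM14. SAMSN1, an adaptor that dampens lymphocyte signalling, had 1.11 and 1.603 RPKM with shNS and 5.82 and 7.39 RPKM with shM14. AP1S2, a sorting subunit of the AP-1 clathrin adaptor, had 10.7 and 9.14 RPKM with shNS and 38.8 and 33.4 RPKM with shM14. The adjusted p of these 4 genes was 0.057, 0.0597, 0.0632 and 0.057, in the same order. The tryptophan-degrading enzyme TDO2 had 1.43 and 2.03 RPKM with shNS and 10.5 and 7.17 RPKM with shM14, and VNN2, a surface pantetheinase of phagocytes, had 7.87 and 4.67 RPKM with shNS and 39.1 and 22.5 RPKM with shM14.

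On the lower side, CSRP3 and PTGIS had the widest gaps. HTRA3, a secreted serine protease, had 43.7 and 28.9 RPKM with shNS and 7.22 and 4.84 RPKM with shM14 (change -2.4, by number -2.44 and -2.36, adjusted p = 0.0632). DEFB1, an antimicrobial defensin, had 79.6 and 57.4 RPKM with shNS and 19.3 and 18.7 RPKM with shM14 (change -1.78, by number -1.99 and -1.56, adjusted p = 0.0632). PRSS57, a serine protease of neutrophil granules, had 104 and 110.4 RPKM with shNS and 32.3 and 37.7 RPKM with shM14 (change -1.59, by number -1.66 and -1.52, adjusted p = 0.057). The shM14 libraries were close together in DEFB1 and PRSS57, and less so in HTRA3. SEPP1, the plasma selenium carrier, had 17.6 and 8.03 RPKM with shNS and 2.34 and 1.05 RPKM with shM14, ADAMDEC1, a metalloprotease of macrophages and dendritic cells, had 8.86 and 11.7 RPKM with shNS and 3.02 and 3.08 RPKM with shM14, and the collagen gene COL23A1 had 14.99 and 11.4 RPKM with shNS and 4.34 and 3.38 RPKM with shM14. OCSTAMP, needed for cell fusion in osteoclasts, had 13.9 and 14.2 RPKM with shNS and 5.19 and 3.31 RPKM with shM14.

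IL1RAP, the co-receptor of the IL-1 receptor and a surface antigen of leukaemic stem cells, had 16.2 and 16.04 RPKM with shNS and 6.11 and 5.71 RPKM with shM14 (change -1.31, by number -1.27 and -1.34, adjusted p = 0.0597). NPC1, which exports cholesterol from lysosomes, had 37.05 and 34.7 RPKM with shNS and 14.2 and 13.1 RPKM with shM14 (change -1.33, by number -1.32 and -1.34, adjusted p = 0.0597). Replicate libraries lay close together in both. The homeobox gene HMX3 had 6.02 and 4.57 RPKM with shNS and 1.08 and 1.08 RPKM with shM14, the chromatin-associated gene BAHCC1 had 9.03 and 10.8 RPKM with shNS and 3.11 and 3.37 RPKM with shM14, and MYO10, the myosin of filopodia, had 15.2 and 13.7 RPKM with shNS and 4.75 and 5.69 RPKM with shM14. The adjusted p was 0.0597 for HMX3, 0.0632 for BAHCC1 and 0.0632 for MYO10.

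Across all tested genes the same-number changes had the same sign in 8553 genes (71.9%) and opposite signs in 3342. The SD across genes of the difference between the shNS libraries was 0.353, and between the shM14 libraries 0.377. The SD of the shM14 minus shNS change was 0.398 in replicate 1 and 0.346 in replicate 2, so hairpins and replicates differed by about as much over the whole transcriptome. A change of at least 1 on log2(RPKM + 1) was seen in both numbers in 85 genes higher and 44 lower, and in opposite directions in 2. Because of the added 1 RPKM, this asks for more than 2-fold in the level itself, most of all in low genes. The median absolute change was 0.16.

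**Figure D3:**
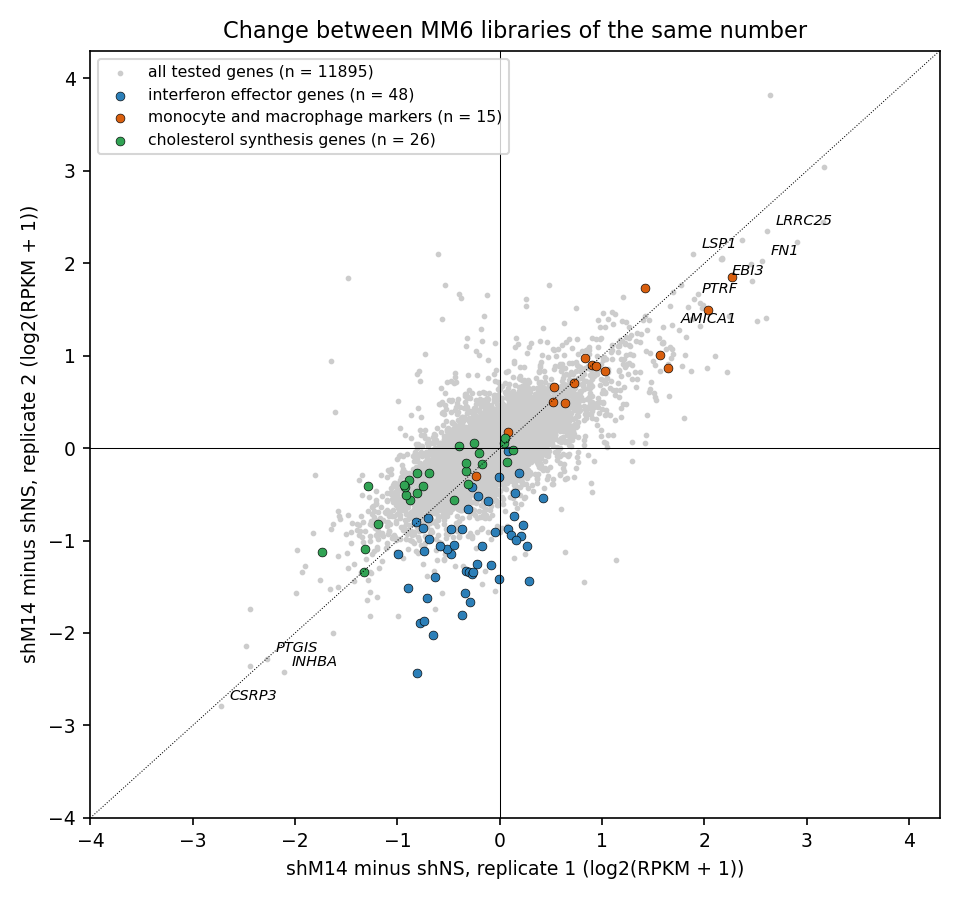
Change of each tested gene between the replicate 1 libraries (x axis) and between the replicate 2 libraries (y axis), as shM14 minus shNS on log2(RPKM + 1); 3 gene lists are coloured, the 9 genes past the threshold are named, and the dotted line marks equal changes. Monocyte markers lie along the dotted line (medians of 0.90 and 0.87), whereas interferon effector genes lie below it (medians of -0.29 and -1.06).

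Among lists with at least 5 tested members, monocyte and macrophage markers had the largest share of members higher in both shM14 libraries. Of 15 tested, 13 were above both shNS libraries, against 19.0% of all tested genes, and none was lower, against 25.8%. The median change was 0.90, against -0.03 over all tested genes. Limma called none of them over all genes. The authors' deposited table calls 9 higher, against 1.79% of all tested genes. CD14, the co-receptor of TLR4 for lipopolysaccharide, had 14.7 and 12.2 RPKM with shNS and 63.2 and 36.3 RPKM with shM14 (change 1.77, by number 2.04 and 1.5, adjusted p = 0.0955). CX3CR1, the fractalkine receptor, had 0.275 and 0.315 RPKM with shNS and 2.42 and 3.37 RPKM with shM14 (change 1.58, by number 1.42 and 1.73, adjusted p = 0.0632). FCER1G, the signalling chain of Fc receptors, had 25.4 and 29.02 RPKM with shNS and 77.2 and 59.2 RPKM with shM14 (change 1.28, by number 1.57 and 1, adjusted p = 0.0839). CSF1R, the receptor for M-CSF, had 1.29 and 1.43 RPKM with shNS and 3.08 and 3.76 RPKM with shM14 (change 0.9, by number 0.83 and 0.97, adjusted p = 0.1003). The groups stood apart in each of these 4 genes. In CX3CR1 both shNS libraries were under 1 RPKM, so the filter alone fixed that order. The exceptions were LYZ, whose groups overlapped, and CD68, a lysosomal glycoprotein, with 66.7 and 42.4 RPKM with shNS and 56.6 and 34.2 RPKM with shM14. With each library left out in turn 13 or 14 of 15 were higher, against 26.0% to 39.9% of all tested genes, and the median ran from 0.71 to 0.96.

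Receptors for antibody, complement and microbial products followed the markers, with which they share members. Among 14 Fc and complement receptors, 11 were higher without overlap and 1 lower, against 19.0% and 25.8% of all tested genes. Their median was 0.61. C5AR1, the receptor for the anaphylatoxin C5a, had 1.81 and 1.21 RPKM with shNS and 15.1 and 4.75 RPKM with shM14 (change 1.95, by number 2.52 and 1.38, adjusted p = 0.1697), and C3AR1, the receptor for C3a, had 5.28 and 4.14 RPKM with shNS and 11.9 and 9.05 RPKM with shM14 (change 1, by number 1.04 and 0.97, adjusted p = 0.124). In C5AR1 most of the distance came from shM14 replicate 1. The complement receptor chain ITGAM had 3.05 and 2.49 RPKM with shNS and 5.67 and 4.67 RPKM with shM14, and the related chain ITGAX had 5.96 and 4.29 RPKM with shNS and 11.5 and 9.48 RPKM with shM14. Among 20 pattern recognition receptors, 12 were higher and 3 lower, with a median of 0.42. CLEC7A, the beta-glucan receptor Dectin-1, had 0.849 and 0.749 RPKM with shNS and 3.97 and 2.64 RPKM with shM14 (adjusted p = 0.091). TLR8, a sensor of single-stranded RNA, had 3.39 and 2.398 RPKM with shNS and 9.52 and 6.74 RPKM with shM14 (adjusted p = 0.111). TYROBP, the signalling adaptor DAP12, had 7.19 and 9.82 RPKM with shNS and 15.7 and 18.4 RPKM with shM14 (adjusted p = 0.141). All 3 had groups apart. In CLEC7A both shNS libraries were under 1 RPKM, so the filter alone fixed that order.

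Immunoglobulin-like and costimulatory receptors had the same direction. Of 16 LILR, Siglec and related receptors, 11 were higher and 2 lower without overlap (median 0.53); besides LRRC25, CD300A and LILRA2, the inhibitory receptor LILRB3 had 0.915 and 0.811 RPKM with shNS and 3.42 and 2.41 RPKM with shM14 (adjusted p = 0.1003). Of 12 costimulatory molecules, 7 were higher, against 19.0% of all tested genes, and none lower, against 25.8%. Their median was 0.40, and 0.20 without shM14 replicate 1. CD80, a ligand of CD28 and CTLA-4, had 0.426 and 0.487 RPKM with shNS and 4.53 and 2.71 RPKM with shM14 (change 1.64, by number 1.95 and 1.32, adjusted p = 0.0779). Its relative CD86 had 7.28 and 7.45 RPKM with shNS and 19.3 and 14.8 RPKM with shM14 (change 1.1, by number 1.29 and 0.9, adjusted p = 0.0922). CD48, a ligand of the receptor CD244, had 3.82 and 3.27 RPKM with shNS and 9.89 and 8.58 RPKM with shM14, and CD70, the ligand of CD27, had 21.6 and 16.9 RPKM with shNS and 44.3 and 48.4 RPKM with shM14. In CD80 and CD86 shM14 replicate 1 was the higher of the shM14 libraries. Both shNS libraries of LILRB3 and CD80 were under 1 RPKM, so the filter alone fixed that their groups did not overlap.

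Effector genes of phagocytes were more mixed. Of 10 subunits and partners of the NADPH oxidase, which makes superoxide, 6 were higher and 2 lower without overlap. Over all tested genes the shares were 19.0% higher and 25.8% lower. CYBB, the catalytic subunit gp91phox, had 9.75 and 14.99 RPKM with shNS and 32.7 and 28.99 RPKM with shM14 (change 1.28, by number 1.65 and 0.91, adjusted p = 0.109), and NCF1, p47phox, had 37.5 and 33.1 RPKM with shNS and 98.5 and 59.4 RPKM with shM14 (change 1.1, by number 1.37 and 0.83, adjusted p = 0.163). NCF1 shares reads with near-identical pseudogenes and is less certain. The proton channel gene HVCN1 went the other way, with 38.3 and 46.8 RPKM with shNS and 15.3 and 26.1 RPKM with shM14. Of 17 S100 and annexin genes, 10 were higher and 1 lower, with medians of 0.56 and 0.19 in replicates 1 and 2. S100A9, a subunit of calprotectin, had 3294 and 2382 RPKM with shNS and 6311 and 4429 RPKM with shM14, and S100A6 had 158 and 116 RPKM with shNS and 382 and 236 RPKM with shM14; ANXA4 was lower, with 123 and 131 RPKM with shNS and 79.5 and 96.4 RPKM with shM14. Granule proteins had 4 of 13 higher and 5 lower. ELANE, neutrophil elastase, had 1599 and 1709 RPKM with shNS and 2275 and 2410 RPKM with shM14 (adjusted p = 0.189), whereas the cystatin CST7 had 113 and 98.7 RPKM with shNS and 48.3 and 64.6 RPKM with shM14 (adjusted p = 0.148).

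Scavenger receptors and chemokines had larger median changes in replicate 1. Of 14 scavenger receptors, 6 were higher and 3 lower without overlap, against 19.0% and 25.8% of all tested genes. Their medians were 0.67 and 0.19 in replicates 1 and 2. CD163, which takes up haemoglobin bound to haptoglobin, had 2.13 and 2.53 RPKM with shNS and 8.804 and 5.46 RPKM with shM14, and CXCL16, a membrane-bound chemokine that also binds oxidised lipoprotein, had 0.628 and 0.636 RPKM with shNS and 2.79 and 2.02 RPKM with shM14. MSR1 had 0.176 and 0.343 RPKM with shNS and 1.36 and 1.07 RPKM with shM14. Both shNS libraries of CXCL16 and MSR1 were under 1 RPKM, so the filter alone fixed that their groups did not overlap. The 14 chemokines had a median change of 0.97, but it was 0.10 without shM14 replicate 1 and 0.34 without shNS replicate 2, and 4 were higher and 2 lower without overlap. Besides CCL4, CCL2 and CXCL16 these included CXCL1, a ligand of CXCR2, with 2.104 and 1.98 RPKM with shNS and 8.55 and 5.29 RPKM with shM14 (adjusted p = 0.104). CXCL8, a neutrophil attractant picked after its values were seen, had 102 and 17.6 RPKM with shNS and 209.7 and 45.3 RPKM with shM14: shNS replicate 1 exceeded shM14 replicate 2, so the groups overlapped although both same-number changes were above 1.

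Of 21 cytokines, 7 were higher (33.3%) and 5 lower (23.8%) without overlap, against 19.0% and 25.8% of all tested genes. Their median of 0.064 was -0.16 without shM14 replicate 1 and 0.50 without shNS replicate 1. IL23A, a subunit of IL-23, had 14.9 and 14.1 RPKM with shNS and 45.8 and 33.5 RPKM with shM14 (change 1.37, by number 1.55 and 1.19, adjusted p = 0.0802). VEGFA, which drives vessel growth, had 6.9 and 7.49 RPKM with shNS and 12.5 and 11.1 RPKM with shM14 (adjusted p = 0.154), while TNFSF10, the death ligand TRAIL, had 14.5 and 14.02 RPKM with shNS and 8.18 and 5.31 RPKM with shM14 (adjusted p = 0.148). Among 24 NF-kB feedback genes 7 were higher and 1 lower; TNFAIP6, a hyaluronan-binding protein, had 12.4 and 9.297 RPKM with shNS and 32.2 and 19.8 RPKM with shM14, and the mitochondrial dismutase SOD2 had 47.9 and 30.2 RPKM with shNS and 121 and 54.01 RPKM with shM14. SOD2 was above both controls in each shM14 library, yet shNS replicate 1 lay near shM14 replicate 2. The median of the NF-kB list was 0.27, and 0.046 without shM14 replicate 1. In that setting 8 of the 24 were higher (33.3%) and 6 lower (25%). Over all tested genes the shares were then 39.9% and 31.8%. SGK1, a serum- and glucocorticoid-induced kinase of the immediate early list, had 19.2 and 10.7 RPKM with shNS and 110 and 45.6 RPKM with shM14 (change 2.23, by number 2.46 and 2, adjusted p = 0.149). With IER5 (21.1 and 18.6 RPKM with shNS and 28.1 and 28.6 RPKM with shM14), it made up the 2 of these 37 genes whose groups did not overlap.

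**Figure D4:**
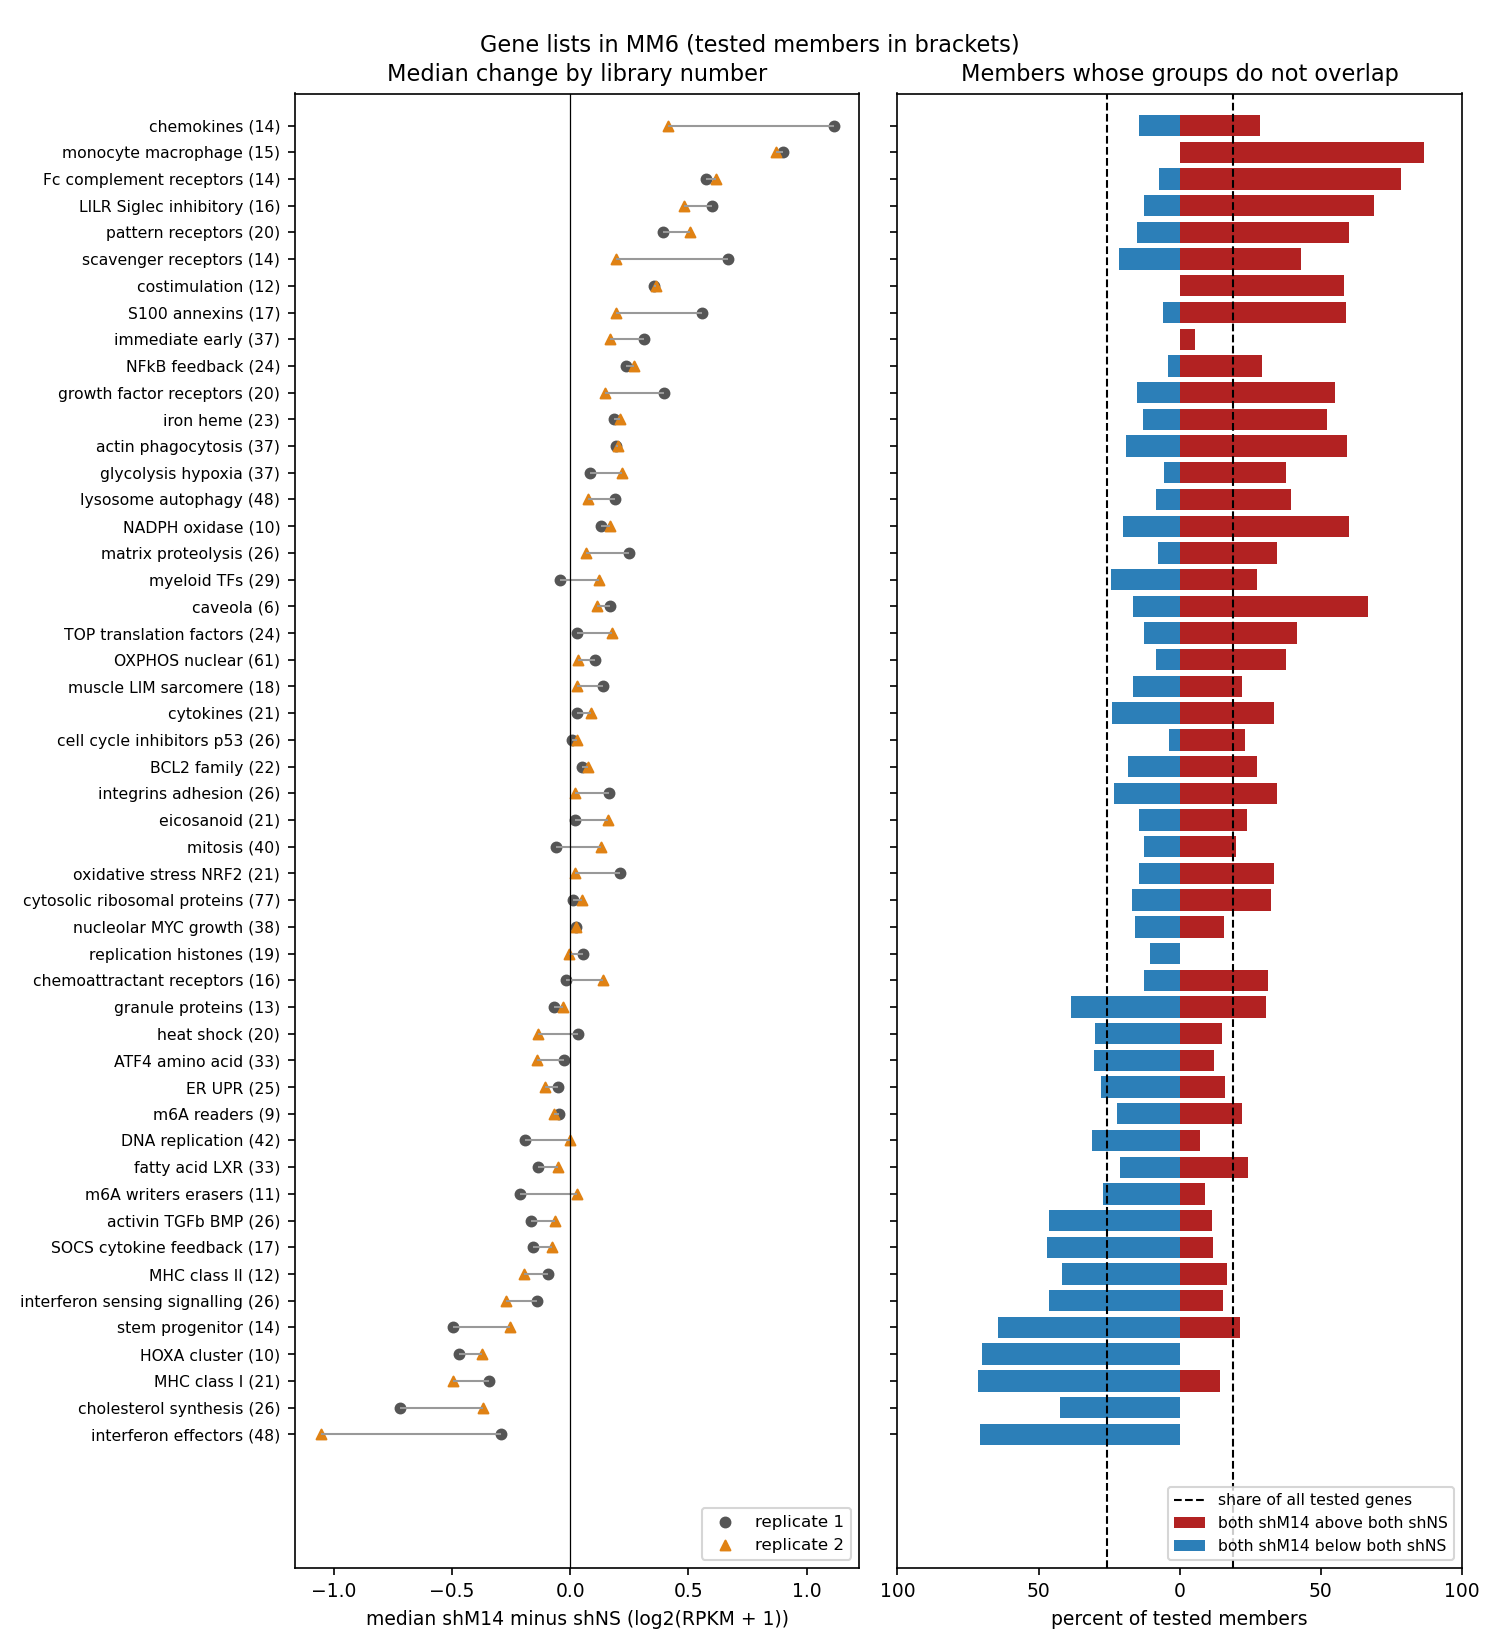
For each gene list with at least 5 tested members, the left panel gives the median change in replicate 1 (circle) and replicate 2 (triangle), as shM14 minus shNS on log2(RPKM + 1), and the right panel the percent of tested members whose groups did not overlap, higher (red) or lower (blue). Dashed lines mark the same share over all tested genes, 19.0% higher and 25.8% lower; monocyte markers stand at 13 of 15 higher and interferon effectors at 34 of 48 lower.

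Progenitor genes lay on the lower side. Of 10 tested genes of the HOXA cluster, 7 were lower and none higher without overlap, against 25.8% and 19.0% of all tested genes. Their medians were -0.47 and -0.38 in replicates 1 and 2. HOXA10 had 9.98 and 9.67 RPKM with shNS and 3.79 and 4.53 RPKM with shM14 (change -1.07, by number -1.2 and -0.95, adjusted p = 0.0779), and HOXA9, a driver of self-renewal in many leukaemias, had 4.69 and 2.93 RPKM with shNS and 1.65 and 2.17 RPKM with shM14 (change -0.7, by number -1.1 and -0.31, adjusted p = 0.239). The libraries of HOXA9 were less even than those of HOXA10. HOXA3 had 1.93 and 1.58 RPKM with shNS and 0.847 and 0.964 RPKM with shM14. HOXA11 had 3.495 and 4.01 RPKM with shNS and 2.35 and 3.03 RPKM with shM14. Both genes were at low levels. Both shM14 libraries of HOXA3 were under 1 RPKM, so the filter alone fixed that its groups did not overlap. With each library left out in turn, 7 to 9 of the 10 were lower, against 31.8% to 50.3% of all tested genes. Of 14 stem and progenitor genes 9 were lower and 3 higher, with a median of -0.38 that was -0.20 without shM14 replicate 1. FLT3, a receptor tyrosine kinase of progenitors, had 1104 and 1154 RPKM with shNS and 642 and 771 RPKM with shM14 (change -0.68, by number -0.78 and -0.58, adjusted p = 0.156). BMI1, a Polycomb protein, had 2.32 and 1.92 RPKM with shNS and 0.9401 and 1.18 RPKM with shM14, and SOX4 had 10.3 and 7.95 RPKM with shNS and 5.98 and 4.31 RPKM with shM14; LMO2, a blood-forming cofactor, was higher with 28.1 and 35.4 RPKM with shNS and 46.03 and 45.8 RPKM with shM14. None of these passed the threshold.

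Among 29 myeloid transcription factors, 8 were higher and 7 lower without overlap, near the background of 19.0% and 25.8% of all tested genes. IRF5, which drives inflammatory macrophage genes, had 8.58 and 9.85 RPKM with shNS and 17.6 and 22.2 RPKM with shM14 (change 1.03, by number 0.96 and 1.1, adjusted p = 0.102). MAF had 0.401 and 0.3102 RPKM with shNS and 1.696 and 1.28 RPKM with shM14. CEBPE, a factor of late granulocytes, had 0.271 and 0.496 RPKM with shNS and 1.34 and 1.08 RPKM with shM14. Both shNS libraries of MAF and CEBPE were under 1 RPKM, so the filter alone fixed that their groups did not overlap. TFEB, which drives lysosomal genes, had 3.38 and 3.28 RPKM with shNS and 5.01 and 5.39 RPKM with shM14 (adjusted p = 0.179). Of 20 growth factor and cytokine receptors, 11 were higher and 3 lower. IL10RA, the ligand-binding chain of the IL-10 receptor, had 0.897 and 1.24 RPKM with shNS and 3.26 and 3.02 RPKM with shM14 (change 1.01, by number 1.17 and 0.85, adjusted p = 0.08804), and IL15RA had 10.8 and 9.58 RPKM with shNS and 5.39 and 5.402 RPKM with shM14 (change -0.8, by number -0.88 and -0.72, adjusted p = 0.108). Both had groups clearly apart, in opposite directions.

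Interferon-induced genes lay on the lower side, and their distance depended on the replicate. Interferon binding to its receptor activates STAT proteins, which with IRF9 bind the interferon-stimulated response element (ISRE) of antiviral genes. Promoter stretches of 6 effector genes are shown because 29 of the 37 effector genes with a promoter entry held the core of this element. They are from RefSeq on build GRCh38.p14, 100 bases each, 5′ to 3′ on the gene's strand, around the element and upstream of the start site; in GBP4 the element itself crosses the start. Capitals mark the ISRE core, TTTCNNTTTC, in either orientation; in HERC5 the copies overlap. The 6 are those with the smallest unadjusted p among effector genes with the core in this promoter table. Promoters on a chromosome that was set aside were not considered for them.
GBP4: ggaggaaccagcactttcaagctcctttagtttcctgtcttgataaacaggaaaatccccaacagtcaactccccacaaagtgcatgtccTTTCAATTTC
SAMD9: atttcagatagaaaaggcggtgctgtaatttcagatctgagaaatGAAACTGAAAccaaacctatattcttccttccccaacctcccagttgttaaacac
HERC5: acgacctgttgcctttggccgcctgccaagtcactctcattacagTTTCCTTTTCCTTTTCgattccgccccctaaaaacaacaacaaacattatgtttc
DDX60: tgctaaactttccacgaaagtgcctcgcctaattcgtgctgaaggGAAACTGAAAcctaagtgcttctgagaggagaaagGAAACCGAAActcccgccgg
PARP9: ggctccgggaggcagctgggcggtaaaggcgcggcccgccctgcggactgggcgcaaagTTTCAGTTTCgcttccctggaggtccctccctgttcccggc
RSAD2: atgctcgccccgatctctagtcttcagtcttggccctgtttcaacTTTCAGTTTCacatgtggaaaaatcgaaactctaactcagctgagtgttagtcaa
The stretches lie at chr1:89198937-89199036 (minus strand) for GBP4 and chr7:93118061-93118160 (minus strand) for SAMD9. Those of HERC5 and DDX60 lie at chr4:88456949-88457048 (plus strand) and chr4:168318786-168318885 (minus strand), and those of PARP9 and RSAD2 at chr3:122564301-122564400 (minus strand) and chr2:6877587-6877686 (plus strand).

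All 48 effector genes were tested. Of them 34 were lower in both shM14 libraries than in both shNS libraries and none was higher. Over all tested genes, 25.8% were lower and 19.0% higher. The median change of the list was -0.73. The authors' deposited table calls 13 lower, against 1.91% of all tested genes, and limma none over all genes. GBP4, a guanylate-binding protein, had 11.5 and 9.83 RPKM with shNS and 5.305 and 3.901 RPKM with shM14 (change -1.07, by number -0.99 and -1.14, adjusted p = 0.108). SAMD9, an antiviral tRNA-cleaving protein, had 11.4 and 14.7 RPKM with shNS and 6.45 and 6.29 RPKM with shM14 (change -0.92, by number -0.74 and -1.11, adjusted p = 0.112). HERC5, the ligase that attaches ISG15, had 19.3 and 25.9 RPKM with shNS and 12.5 and 11.9 RPKM with shM14 (change -0.82, by number -0.59 and -1.06, adjusted p = 0.154). DDX60, a helicase of the RNA sensing pathway, had 14.3 and 19.7 RPKM with shNS and 8.46 and 9.501 RPKM with shM14 (change -0.84, by number -0.69 and -0.98, adjusted p = 0.157). In these 4 the groups stood well apart, although shNS replicate 2 was the highest library in SAMD9, HERC5 and DDX60. It was also the highest in MX1 and IFI6. MX1, an antiviral GTPase picked after its values were seen, had 190.2 and 392 RPKM with shNS and 150.1 and 131 RPKM with shM14. IFI6, which was named for its opposite same-number changes, had 225 and 423 RPKM with shNS and 271 and 203 RPKM with shM14. The list's median was -0.29 in replicate 1 and -1.06 in replicate 2, and the same-number changes were of opposite sign in 12 of 48 genes. Without shNS replicate 2 the median was -0.37, with 35 of 48 lower against 35.3% of all tested genes; without shNS replicate 1 it was -0.93, with 44 of 48 lower against 43.7%. OAS3 and IFITM3 were also among the genes with the most opposite same-number changes, at 0.21 and -0.95 and 0.28 and -1.43.

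The ISRE core was found, on both strands, in 1255 of 35116 RefSeq promoters (3.57%) of 300 bases, from 250 before to 50 after the start. By gene ID 12714 of the 16726 listed genes matched a promoter, and 9398 of these were tested. Of 37 effector genes with a promoter 29 held the core (78.4%), and of 17 MHC class I genes 11 did (64.7%). Among the 381 tested genes with the core, 37.8% were lower without overlap and 15.2% higher. Among the 9017 without it the shares were 25.5% and 18.6%. Leaving out the interferon and class I lists, 338 genes with the core had 33.4% lower and 16.6% higher. Within the effector list, 20 of 29 genes with the core and 8 of 8 without it were lower. A match of letters is a description and not a binding site.

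**Figure D5:**
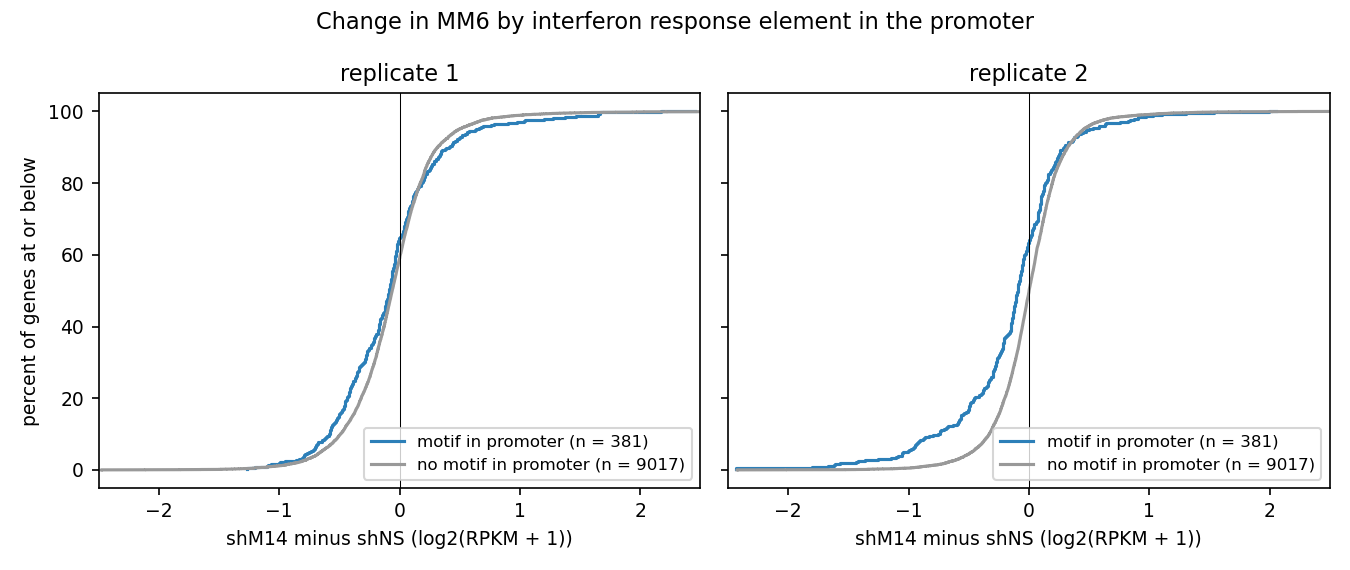
Cumulative percent of tested genes by change (shM14 minus shNS, log2(RPKM + 1)) in replicate 1 (left) and replicate 2 (right), for 381 genes with the ISRE core in the promoter and 9017 without it. The lines lie close in replicate 1 (medians of -0.084 and -0.061) and part on the lower side in replicate 2 (medians of -0.092 and 0.0021).

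The genes that sense RNA and relay interferon signals were less uniform. Of 26 tested, 12 were lower and 4 higher without overlap, against 25.8% and 19.0% of all tested genes. IRF7, which amplifies type I interferon, had 20.6 and 37.3 RPKM with shNS and 13.6 and 11.9 RPKM with shM14 (change -1.06, by number -0.56 and -1.57, adjusted p = 0.193). In IRF7, shNS replicate 2 was the highest library. The cytosolic RNA sensor gene DDX58 (RIG-I) had 8.33 and 12.2 RPKM with shNS and 5.06 and 5.11 RPKM with shM14, and MB21D1, the DNA sensor cGAS, had 26.7 and 29.9 RPKM with shNS and 11.8 and 18.1 RPKM with shM14. MB21D1 differed from the others in having close control libraries.

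Genes of MHC class I presentation had 15 of 21 members lower and 3 higher without overlap, against 25.8% and 19.0% of all tested genes. The median was -0.48, and -0.28 without shNS replicate 2. CALR, the chaperone calreticulin, had 1584 and 1984 RPKM with shNS and 929.7 and 1217 RPKM with shM14 (change -0.74, by number -0.77 and -0.7, adjusted p = 0.195). The immunoproteasome subunit PSMB9 had 3.86 and 5.36 RPKM with shNS and 2.38 and 2.35 RPKM with shM14 (change -0.72, by number -0.52 and -0.92, adjusted p = 0.166), and PSME1, a proteasome activator, had 117 and 122 RPKM with shNS and 82.2 and 82.2 RPKM with shM14 (change -0.53, by number -0.5 and -0.56, adjusted p = 0.167). The peptide-trimming enzyme ERAP2 had 14.3 and 12.3 RPKM with shNS and 9.05 and 8.67 RPKM with shM14. The groups of all 4 stood apart, and with each library left out in turn 15 to 17 of the 21 were lower, against 31.8% to 50.3% of all tested genes. Of 12 class II genes 5 were lower and 2 higher; HLA-DRA had 33.1 and 32.5 RPKM with shNS and 18.9 and 22.8 RPKM with shM14, and its regulator RFX5 had 37.4 and 34.4 RPKM with shNS and 26.9 and 26.9 RPKM with shM14. HLA genes are close paralogs, so reads may be split among them.

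Feedback inhibitors of cytokine signalling were lower in part. Of 17 SOCS and related genes 8 were lower and 2 higher without overlap, against 25.8% and 19.0% of all tested genes. SOCS1, which blocks JAK kinases, had 25.4 and 31.4 RPKM with shNS and 14.2 and 15.7 RPKM with shM14 (change -0.88, by number -0.8 and -0.96, adjusted p = 0.116). SOCS2 had 21.8 and 16.4 RPKM with shNS and 11.1 and 8.11 RPKM with shM14 (change -0.92, by number -0.91 and -0.93, adjusted p = 0.162), and CISH, a STAT5 target, had 52.8 and 32.05 RPKM with shNS and 24.2 and 17.9 RPKM with shM14 (change -0.95, by number -1.1 and -0.8, adjusted p = 0.218). PIAS1 had 20.4 and 20.4 RPKM with shNS and 12.7 and 15.2 RPKM with shM14. Of 26 genes of the activin, TGF-beta and BMP pathways 12 were lower, INHBA among them, and 3 higher. FSTL1, a secreted glycoprotein related to follistatin, had 9.88 and 8.48 RPKM with shNS and 3.27 and 3.86 RPKM with shM14 (change -1.16, by number -1.35 and -0.96, adjusted p = 0.0779). The repressor SKI had 24.7 and 20.99 RPKM with shNS and 14.8 and 14.4 RPKM with shM14, whereas the receptor TGFBR2 had 9.89 and 10.04 RPKM with shNS and 14.6 and 14.5 RPKM with shM14. The median of the list was -0.12; it was -0.07 without shNS replicate 1, -0.29 without shNS replicate 2 and -0.23 without shM14 replicate 1.

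Cholesterol synthesis genes are transcribed together by SREBF2 when sterols run low. Of 26 genes of synthesis and transport, 11 were lower and none higher without overlap, against 25.8% and 19.0% of all tested genes. Their medians were -0.72 and -0.37 in replicates 1 and 2. The sterol reductase TM7SF2 had 22.1 and 29.6 RPKM with shNS and 8.23 and 13.4 RPKM with shM14 (change -1.2, by number -1.32 and -1.09, adjusted p = 0.156), and the sterol carrier STARD4 had 21.3 and 24.4 RPKM with shNS and 8.74 and 13.4 RPKM with shM14 (change -1, by number -1.19 and -0.82, adjusted p = 0.156). In both genes shM14 replicate 1 was the lowest library. Without that library the median of the list was -0.20, against -0.52 with all 4 libraries. It was -0.23 without shNS replicate 2, -0.79 without shNS replicate 1 and -1.04 without shM14 replicate 2. Fatty acid and LXR genes were near the background, with 8 of 33 higher and 7 lower; the lipid droplet protein PLIN3 had 36.7 and 35.5 RPKM with shNS and 23.8 and 22.3 RPKM with shM14, APOE had 285 and 244 RPKM with shNS and 475 and 352 RPKM with shM14, and ACSL1, which activates fatty acids, had 62.5 and 52.3 RPKM with shNS and 175 and 82.3 RPKM with shM14.

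Iron, lysosome and sugar genes leaned higher, with medians of 0.20, 0.15 and 0.16. With a library left out, the iron median was 0.21 to 0.26. The lysosome median was 0.068 without shM14 replicate 1. In that setting 21 of the 48 lysosome genes were higher (43.8%), near the 39.9% of all tested genes. The sugar median was 0.058 without shM14 replicate 2. Of 23 iron and haem genes, 12 were higher and 3 lower without overlap, against 19.0% and 25.8% of all tested genes. SLC40A1, the iron exporter ferroportin, was lower with 4.803 and 4.79 RPKM with shNS and 1.24 and 2.02 RPKM with shM14 (change -1.16, by number -1.37 and -0.94, adjusted p = 0.0955). SLC11A1, the phagosomal metal transporter, had 4.26 and 6.77 RPKM with shNS and 10.9 and 14.2 RPKM with shM14, and HMOX1, which breaks down haem, had 3.96 and 2.99 RPKM with shNS and 20.3 and 6.97 RPKM with shM14. HMOX1 was uneven, with same-number changes of 2.1 and 1. Of 48 lysosome and autophagy genes, 19 were higher and 4 lower; the protease CTSB had 215 and 192 RPKM with shNS and 371 and 290.3 RPKM with shM14, its relative CTSZ had 272 and 273 RPKM with shNS and 462 and 396 RPKM with shM14, and the thioesterase PPT1 had 139 and 134 RPKM with shNS and 86 and 94.02 RPKM with shM14. Of 37 glycolysis and hypoxia genes, 14 were higher and 2 lower, among them the hexose transporter SLC2A6 with 1.42 and 1.54 RPKM with shNS and 4.52 and 4.67 RPKM with shM14 (change 1.18, by number 1.19 and 1.16, adjusted p = 0.0632) and GPI with 138 and 148 RPKM with shNS and 204 and 218 RPKM with shM14.

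Actin and phagocytosis genes had 22 of 37 members higher and 7 lower without overlap, against 19.0% and 25.8% of all tested genes. Their median was 0.20. CORO1A, coronin 1A, had 20.5 and 24.8 RPKM with shNS and 54.6 and 56.2 RPKM with shM14 (change 1.26, by number 1.37 and 1.15, adjusted p = 0.0632). FGR, a SRC-family kinase, had 22.1 and 22.5 RPKM with shNS and 66.5 and 46.3 RPKM with shM14 (change 1.28, by number 1.55 and 1.01, adjusted p = 0.0955), and the capping protein CAPG was lower with 258 and 278 RPKM with shNS and 139 and 156 RPKM with shM14 (change -0.86, by number -0.89 and -0.83, adjusted p = 0.102). Of 26 integrin and adhesion genes 9 were higher (34.6%) and 6 lower (23.1%). The tetraspanin CD9 had 4.06 and 2.98 RPKM with shNS and 8.72 and 8.01 RPKM with shM14, ITGB7 had 5.33 and 3.87 RPKM with shNS and 11.2 and 8.72 RPKM with shM14, and its partner ITGA4 had 101 and 105 RPKM with shNS and 55.8 and 65.8 RPKM with shM14. ITGB7 and ITGA4, which form 1 integrin, thus lay on opposite sides. The integrin and adhesion median of 0.043 was -0.0024 without shM14 replicate 1. Of 26 matrix and proteolysis genes 9 were higher and 2 lower. Their median of 0.13 was 0.031 without shM14 replicate 1, where 11 were higher and 8 lower. Over all tested genes the shares were then 39.9% higher and 31.8% lower. The gelatinase MMP2 had 9.16 and 7.397 RPKM with shNS and 14.5 and 17.2 RPKM with shM14. The chaperone PTGES3 had 161 and 180.5 RPKM with shNS and 91.3 and 99.5 RPKM with shM14 and the lipoxygenase ALOX5 had 0.825 and 1.21 RPKM with shNS and 2.35 and 2.23 RPKM with shM14.

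Growth and survival genes differed by list, against 19.0% higher and 25.8% lower over all tested genes. Of 42 genes that replicate DNA, 3 were higher and 13 lower; UHRF1, which keeps DNA methylation, had 78.7 and 102 RPKM with shNS and 36.6 and 53.98 RPKM with shM14 (change -0.99, by number -1.08 and -0.9, adjusted p = 0.166), and RRM2, a ribonucleotide reductase subunit, had 57.2 and 53.2 RPKM with shNS and 85.4 and 74.4 RPKM with shM14. The median of the DNA replication genes was -0.19 in replicate 1 and 0.00048 in replicate 2. Mitosis genes had 8 of 40 higher and 5 lower, and nucleolar and MYC-driven genes 6 of 38 in each direction. TERT, the telomerase catalytic subunit, had 2.72 and 2.63 RPKM with shNS and 0.996 and 1.81 RPKM with shM14. Ribosomal protein genes had 25 of 77 higher and 13 lower, translation factors 10 of 24 and 3, and nuclear genes of oxidative phosphorylation 23 of 61 and 5, with medians of 0.029, 0.095 and 0.085. The median of ribosomal protein genes changed sign without shNS replicate 2 and that of oxidative phosphorylation genes without shNS replicate 1, and that of translation factors was 0.016 without shNS replicate 2. Of 22 BCL2-family genes 6 were higher and 4 lower, and BCL2, the anti-apoptotic founder, had 18.2 and 20.02 RPKM with shNS and 6.097 and 10.9 RPKM with shM14 (change -1.13, by number -1.44 and -0.81, adjusted p = 0.162). The p53 and CDK inhibitor list had 6 of 26 higher and 1 lower. With a library left out, the medians of that list and of the DNA replication, mitosis and nucleolar lists each took both signs.

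Stress lists other than the replication histones had members apart on both sides, against 19.0% higher and 25.8% lower over all tested genes. Of 25 genes of the endoplasmic reticulum and its stress response, 4 were higher and 7 lower; XBP1 had 166 and 164 RPKM with shNS and 104 and 103 RPKM with shM14 (change -0.67, by number -0.68 and -0.66, adjusted p = 0.126). Amino acid response genes had 4 of 33 higher and 10 lower, and heat shock genes 3 of 20 and 6. Of 21 oxidative stress genes, 7 were higher and 3 lower, and catalase (CAT) had 218 and 229 RPKM with shNS and 122 and 143 RPKM with shM14 while PRDX1 had 582 and 642 RPKM with shNS and 367 and 429 RPKM with shM14. Replication histones had none of 19 higher and 2 lower. Among 16 chemoattractant receptors 5 were higher and 2 lower, CX3CR1, C5AR1 and C3AR1 among the higher.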

How the data were processed

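Poly(A) RNA of MM6 cells with shM14 or shNS was sequenced as single-end reads of 50 bp, per the labels' protocols, which name a directional kit, and the authors deposited 1 table for the line. Its RPKM values per library are as deposited by the authors; the unit was worked out from the values. The signal columns are the authors' group means of size-factor-scaled reads. The ratio column holds the authors' fold change and the log2 column its logarithm, per the file headers. The p-value columns are the authors' deposited p and adjusted p. Not given in the sources used here: aligner, counter, build, strand setting and the authors' test. For that reason overlapping and antisense genes and close paralogs are less certain. RPKM and group means together gave whole reads for 100% of values within a tolerance of 0.01, which supplied the depth; no count model was used.

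Genes whose RPKM reached 1 in 2 or more of the 4 libraries were fitted on log2(RPKM + 1) with limma 3.58.1 in R 4.3.3, hairpin only, 2 against 2 libraries, two-sided, with Benjamini-Hochberg adjustment over 11895 genes and a threshold of 0.05. The pseudocount of 1 understates the change of low genes. The fit had 2 residual and 3.49 prior degrees of freedom. It was also run on simulated data, which held no difference by replicate number and so do not cover the one seen here. Groups were said not to overlap where both libraries of a group lay above both of the other. Where both libraries of a group were under 1 RPKM, a tested gene passed the filter only through the other group. Non-overlap was then fixed in advance, and the list counts include such genes.

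The genes, the 59 gene lists and the tests were chosen with earlier results of these data known, and no list was tested as a set. Named genes were METTL14; all genes past the threshold; the 15 per direction with the widest gap between the closest libraries of the groups, with a mean RPKM of at least 5 in the higher group; up to 4 members per list with the smallest p; and the 5 per direction with the most opposite same-number changes. A few named otherwise are marked in the text. The list of mitochondrially encoded genes was not analysed here, and some named genes are not reported here. Alternatives were a pseudocount of 0.1, other filters, a replicate block, median-of-ratios scaling, voom on the recovered reads, all 8 libraries in 1 model, the authors' p, a variance trend and leaving out each library. Promoters came from a RefSeq table on GRCh38.p14. Summaries and figures used Python 3.11.15, numpy 2.4.6, pandas 2.3.3 and matplotlib 3.10.9.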

Additional observations from a re-analysis of the deposited data

How the results depend on the processing

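The number of genes past the threshold depended on the model. Against 9 genes in the fit of the 4 libraries, median-of-ratios scaling gave 3, a filter at an RPKM of 5 gave 4, no filter gave 0 at 16726 genes tested, voom on the recovered reads gave 39, 1 model of all 8 libraries gave 1315, and the authors' deposited adjusted p calls 548 of all listed genes; leaving out a library gave 0 to 30, with 0 without either shNS library. With the replicate number as a replicate block the count was 1405. The labels state no pairing and there are only 2 numbers, but the deviations of same-numbered libraries from their group means correlated at 0.70 across genes. Of the 30 genes with the widest gap, 6 passed; 30 did with the replicate block, 30 with all 8 libraries, 15 with voom, 2 with median-of-ratios scaling and 0 to 13 with a library left out. METTL14 kept its change of -0.88 and passed with the replicate block (adjusted p = 0.00885) and with all 8 libraries (-0.88, adjusted p = 0.00311); over the other alternatives its adjusted p was 0.0633 to 0.311. List medians at least 0.25 from 0 numbered 16 of 50, and 10 to 20 with a library left out; 19 of the 50 medians then changed sign at some library, and 2 did under median-of-ratios scaling, which moved the median of all genes from -0.03 to 0.0085. The median of immediate early genes went from 0.28 to -0.58 without shNS replicate 2 and to 1.21 without shNS replicate 1. Of 219 named genes with alternatives, 8 reversed in some setting that left out a library: GP1BA ran from -0.021 to 0.37, SNORD69 from -1.17 to 1.53, MIR616 from -0.44 to 1.94, SNORD38B from -0.00095 to 1.28, SNORD12 from -0.59 to 0.63, IFI6 from -0.85 to 0.062, MIR548AR from -1.08 to 0.029 and MIR5587 from -0.60 to 1.02. With 2 libraries a group, a lone library is assumed to vary like the other group.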

Other observations

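Rows of small RNA genes held the most opposite same-number changes. SNORD69, a small nucleolar RNA, had 11.99 and 0.997 RPKM with shNS and 3.64 and 6.14 RPKM with shM14, so that its change was -1.49 in replicate 1 and 1.84 in replicate 2. SNORD38B had 10.3 and 5.56 RPKM with shNS and 7.62 and 19.9 RPKM with shM14. MIR616 had 8.39 and 0.808 RPKM with shNS and 5.17 and 6.78 RPKM with shM14. These genes are short, and few reads lie behind such values.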
